A study of Homo sapiens with 4 samples.

Results

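The transcripts of 10 Krüppel-like factors, KLF2, KLF3, KLF4, KLF5, KLF6, KLF7, KLF9, KLF10, KLF11 and KLF13, were followed in MDA-MB-231 cells after inhibition of TEAD palmitoylation. The genes were taken by name from the 48162 genes of the deposited table, and every name matched a single row. MDA-MB-231 is a human triple-negative breast cancer line, and MGH-CP1 is a small molecule that occupies the lipid pocket of the TEAD transcription factors. The cells received vehicle control or MGH-CP1 at 10 µM for 24 h, with 2 libraries in each group, as the labels state; the methods give the dose in millimolar. All 4 libraries come from the same cell line with no other treatment or allele named, and nothing in the sources says whether replicates were separate cultures, so that the tests measure the spread between these libraries only.

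Krüppel-like factors bind GC-rich and CACCC elements through zinc fingers at their carboxyl end, and differ mainly in the amino-terminal part that recruits cofactors. KLF2, KLF4, KLF5, KLF6 and KLF7 act largely as activators that use acetyltransferases, KLF3 is a repressor that binds CtBP, and KLF9, KLF10, KLF11 and KLF13 bind SIN3A and its histone deacetylases. In epithelial and cancer cells the family is known for its part in growth arrest, differentiation and the response to TGF-beta, and the Hippo effector YAP is known to protect the KLF5 protein from the ubiquitin ligase WWP1.

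After MGH-CP1, 7 of the 10 factors were higher, 2 were lower and KLF5 did not pass the test. KLF9 rose most, to 2.16 times its vehicle control level, followed on the log2(FPKM + 1) scale by KLF2, KLF4, KLF13, KLF7, KLF3 and KLF6. KLF10 and KLF11, both known as genes induced early by TGF-beta, fell to 0.822 and 0.843 times the vehicle control level. The test was limma on log2(FPKM + 1) across the 12080 genes whose FPKM averaged 1 or more over the libraries, two-sided, with a Benjamini-Hochberg adjusted p under 0.05 as the threshold. FPKM, the fragments on a gene scaled to its length and to the fragments of the library, is a level per gene length, and a fold change on the log2(FPKM + 1) scale understates the change of genes with a low FPKM. In the same fit 50.8% of all genes tested were called, with 27.1% of all genes tested higher and 23.8% lower. The median log2 fold change was 0.43 over the 10 factors and 0.01 over all genes tested. The 10 factors were chosen with earlier results of these data known, so these shares and medians only describe the list. Over all 12 KLF genes tested, 7 were higher and 3 lower, with a median log2 fold change of 0.29. In bulk RNA a change in the share of cells that express a factor and a change in RNA per cell cannot be told apart.

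The promoters of the 4 factors with the largest rise on the log2(FPKM + 1) scale are shown. KLF9 lacks the GC boxes that factors of this family bind, while the others shown hold them. By fold in mean FPKM, KLF7 came after KLF9 and before KLF2. Each line gives the 250 bases before the RefSeq start in GRCh38.p14 coordinates, read 5′ to 3′ on the strand of the gene, with capitals marking GGGCGG or its reverse complement CCGCCC and CACCC or its reverse complement GGGTG.
KLF9, chr9:70414658-70414907, minus strand: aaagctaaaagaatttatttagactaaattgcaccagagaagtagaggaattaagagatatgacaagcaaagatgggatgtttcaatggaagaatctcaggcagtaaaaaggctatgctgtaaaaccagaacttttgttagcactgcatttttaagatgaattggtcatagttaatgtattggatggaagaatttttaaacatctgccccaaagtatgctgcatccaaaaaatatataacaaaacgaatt
KLF2, chr19:16324576-16324825, plus strand: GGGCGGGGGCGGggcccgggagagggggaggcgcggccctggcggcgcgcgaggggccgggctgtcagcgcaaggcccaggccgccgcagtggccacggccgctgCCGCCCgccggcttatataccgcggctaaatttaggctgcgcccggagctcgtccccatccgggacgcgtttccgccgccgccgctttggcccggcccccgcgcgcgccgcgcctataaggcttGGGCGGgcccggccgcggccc
KLF4, chr9:107489770-107490019, minus strand: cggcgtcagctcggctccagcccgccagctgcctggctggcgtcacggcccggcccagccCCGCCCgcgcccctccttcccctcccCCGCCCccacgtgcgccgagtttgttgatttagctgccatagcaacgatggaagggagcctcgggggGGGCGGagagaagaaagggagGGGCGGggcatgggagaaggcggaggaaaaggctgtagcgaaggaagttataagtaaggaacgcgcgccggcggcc
KLF13, chr15:31326585-31326834, plus strand: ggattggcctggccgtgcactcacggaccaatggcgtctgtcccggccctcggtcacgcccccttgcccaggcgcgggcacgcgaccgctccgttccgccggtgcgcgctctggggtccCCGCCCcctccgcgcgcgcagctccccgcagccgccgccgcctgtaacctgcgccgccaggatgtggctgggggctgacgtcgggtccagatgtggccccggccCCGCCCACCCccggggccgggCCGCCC
KLF9 held none of these motifs, while KLF2 and KLF4 each held 4 GC boxes. KLF13 held 3 GC boxes and a CACCC that shares its first base with the last base of a GC box.

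Promoter windows of 300 bases, from 250 bases before to 50 bases after a RefSeq start, were at hand for 8 of the 10 factors, with 13 windows in all since KLF5, KLF7 and KLF11 have several starts. No window was used for KLF3 and KLF10. GGGCGG was present on either strand in 8 of the 13 windows, where 15786 of 35116 windows hold it. Counting any window of a factor, 7 of the 8 factors held it, and counting the most upstream window alone, 5 did. GGGCGG was absent from the most upstream windows of KLF5, KLF7 and KLF9. CACCC was present in 7 of the 13 windows, against 59.9% of all windows. It was in any window of 4 of the 8 factors and in the most upstream window of 3. GGAATG, the core of the element that TEAD factors bind, was present in 1 window, that of the most upstream start of KLF7, and in 14.0% of all windows. The GC content of the windows ranged from 32.7% for KLF9 to 80.7% for KLF2, with a median of 58.7% over all windows. KLF11, which fell, held 2 and 7 GC boxes in its windows, so that GC boxes occurred in factors of either direction.

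**Figure D1:**
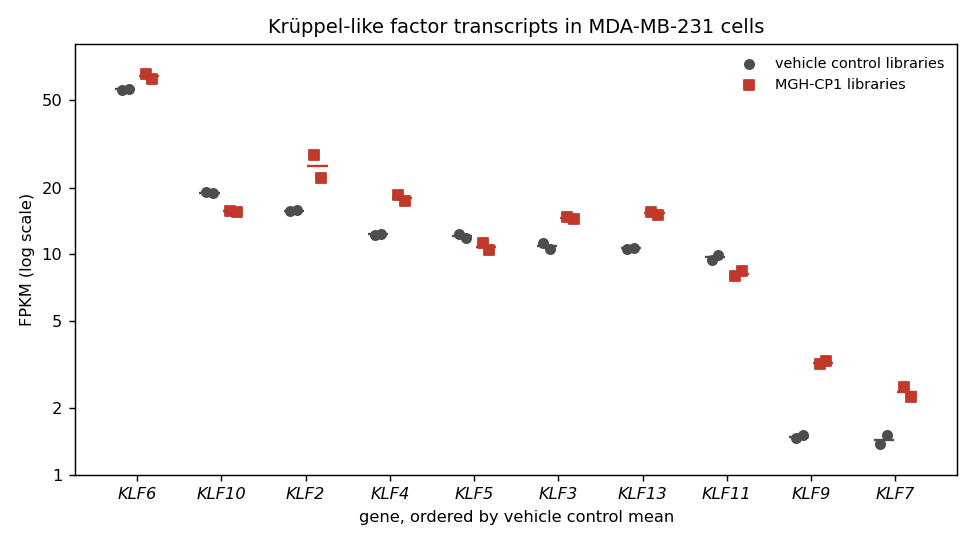
FPKM (log scale) of each Krüppel-like factor in the 2 vehicle control libraries (circles) and the 2 MGH-CP1 libraries (squares), with a line at each group mean, ordered by the vehicle control mean. KLF6 lies highest in every library, from 55.5 to 65.9 FPKM, and for each gene the groups do not overlap.

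The factors differed widely in level. KLF6 had 56.0 ± 0.722 FPKM (SD, n = 2) in vehicle control cells and KLF7, the lowest, 1.44 ± 0.0941 FPKM. Between them, in falling order of FPKM, lay KLF10, KLF2, KLF4, KLF5, KLF3, KLF13, KLF11 and KLF9. In that order the vehicle control libraries of KLF4 and KLF5, of KLF3 and KLF13, and of KLF9 and KLF7 overlapped, so these neighbours did not differ beyond their spread. Only 9.56% of the genes tested had a higher vehicle control FPKM than KLF6, whereas 91.9% exceeded KLF9 and 92.3% exceeded KLF7. After MGH-CP1 the order was KLF6, KLF2, KLF4, KLF10, KLF13, KLF3, KLF5, KLF11, KLF9 and KLF7, and the libraries of KLF10 and KLF13 alone overlapped among neighbours. KLF10 thus moved from place 2 to place 4, and KLF2 from place 3 to place 2.

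**Figure D2:**
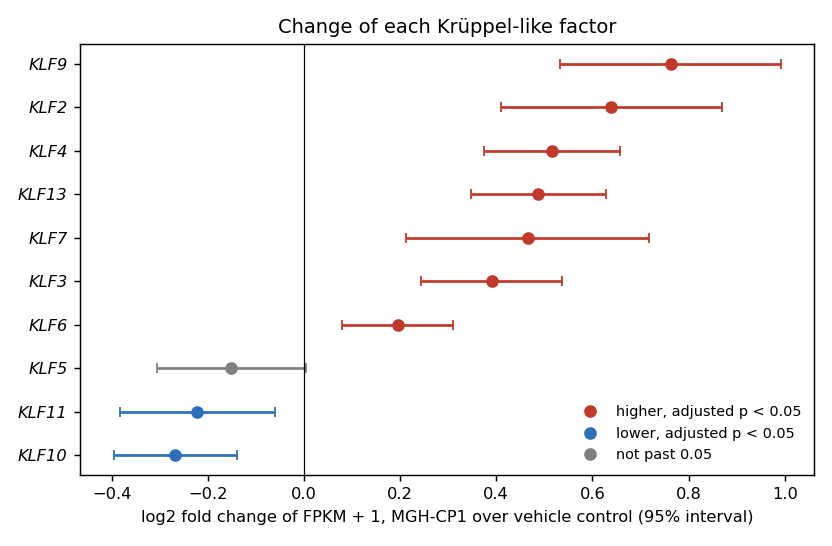
Log2 fold change of FPKM + 1 for each Krüppel-like factor, MGH-CP1 over vehicle control, with its 95% interval from limma; colours give the call at an adjusted p under 0.05. The intervals of 7 genes lie above 0, those of KLF10 and KLF11 lie below 0 and that of KLF5 includes 0.

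Among the activators, KLF2, a factor of endothelial and lymphocyte quiescence, had 15.7 and 15.8 FPKM in vehicle control replicates 1 and 2, and 28.3 and 22.2 FPKM in MGH-CP1 replicates 1 and 2. Both treated libraries lay above both controls, but they differed from each other by more than the treated libraries of any other factor, with an SD of 4.31 FPKM. The log2 fold change was 0.64 (standard error 0.10, limma adjusted p = 0.00119); without MGH-CP1 replicate 1 it was 0.47 and without MGH-CP1 replicate 2 it was 0.81. KLF4, which drives differentiation of gut epithelium and is used to reprogram cells to pluripotency, had 12.3 and 12.4 FPKM in the controls and 18.6 and 17.5 FPKM after MGH-CP1. Its levels were separate and the replicates close, and the log2 fold change was 0.52 (standard error 0.06, limma adjusted p = 3.21e-04).

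KLF6, which has been studied as a candidate tumour suppressor, had 55.5 and 56.5 FPKM in the controls and 65.9 and 62.6 FPKM after MGH-CP1. The treated libraries were both higher, by 14.8% in the mean, the smallest rise among the 7 factors called higher (log2 fold change 0.19, standard error 0.05, limma adjusted p = 0.0122). KLF7, best known from neurons, had 1.38 and 1.51 FPKM in the controls and 2.50 and 2.25 FPKM after MGH-CP1. This is a low level, with 293 to 376 fragments per library, and the rise was 1.65-fold in mean FPKM (log2 fold change 0.47, standard error 0.11, limma adjusted p = 0.00846). With limma voom on the recovered fragments, which adds no pseudocount of 1 FPKM, the log2 fold change of KLF7 was 0.72, and with a pseudocount of 0.1 it was 0.68. With quantile normalization the log2 fold change of KLF7 was lower, at 0.33.

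KLF5, a factor of proliferating epithelium, had 12.4 and 11.9 FPKM in the controls and 11.2 and 10.4 FPKM after MGH-CP1. Both treated libraries were below both controls, yet the log2 fold change of -0.15 did not pass the test (standard error 0.07, 95% interval -0.31 to 0.0048, limma adjusted p = 0.0959). With median-ratio scaling between libraries it did pass, at a log2 fold change of -0.20 and a limma adjusted p of 0.0356, the lowest over the alternatives, whose highest was 0.360.

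KLF3, the repressor that binds CtBP, had 11.3 and 10.6 FPKM in the controls and 14.8 and 14.5 FPKM after MGH-CP1. The groups were separate, with a rise of 33.8% in mean FPKM (log2 fold change 0.39, standard error 0.06, limma adjusted p = 0.00150). The KLF3 locus overlaps AC021860.1 and RP11-617D20.1 on the opposite strand, which held at most 1 and 3 fragments in a library, against 1304 to 1473 for KLF3.

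The factors that bind SIN3A split in direction. KLF9, known as a target of glucocorticoid and thyroid hormone receptors, had 1.46 and 1.52 FPKM in the controls and 3.18 and 3.27 FPKM after MGH-CP1. Its replicates were close and far apart between groups, with 193 to 298 fragments per library, and 4.21% of the genes tested had a larger log2 fold change than its 0.76 (standard error 0.10, limma adjusted p = 5.04e-04). KLF13, a regulator of CCL5 in T cells, had 10.6 and 10.7 FPKM in the controls and 15.6 and 15.0 FPKM after MGH-CP1. It rose by 44.0% in mean FPKM (log2 fold change 0.49, standard error 0.06, limma adjusted p = 4.09e-04).

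KLF10 had 19.1 and 19.0 FPKM in the controls and 15.7 and 15.6 FPKM after MGH-CP1. The groups were well apart, and KLF10 decreased by 0.27 on the log2 scale (standard error 0.06, limma adjusted p = 0.00470). KLF11, its close relative, had 9.40 and 9.97 FPKM in the controls and 7.96 and 8.36 FPKM after MGH-CP1. These groups were separate too, and KLF11 decreased by 0.22 on the log2 scale (standard error 0.07, limma adjusted p = 0.0288), the call nearest to the threshold.

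For all 10 factors the ranges of the groups did not overlap, as for 77.2% of all genes tested. Both MGH-CP1 values were above both controls in 7 factors and below them in 3, and 39.8% and 37.4% of all genes tested showed these patterns. For a single gene an exact permutation test, two-sided, of 2 libraries against 2 cannot go below p = 0.333, and the calls depend on borrowing variance across genes. With each gene's own variance alone, limma adjusted p-values of the 9 called factors lay between 0.0549 for KLF10 and 0.138 for KLF2, and 0 of the 10 were called, although 8 of the 10 had an unadjusted p under 0.05. KLF6 lost its call without MGH-CP1 replicate 1 (limma adjusted p = 0.0883), and KLF11 without vehicle control replicate 2 or either MGH-CP1 replicate (limma adjusted p = 0.135, 0.129 and 0.0515). Without a filter on low values, where 24878 genes were adjusted for, KLF2, KLF6, KLF7 and KLF11 had limma adjusted p-values from 0.0505 to 0.0781.

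**Figure D3:**
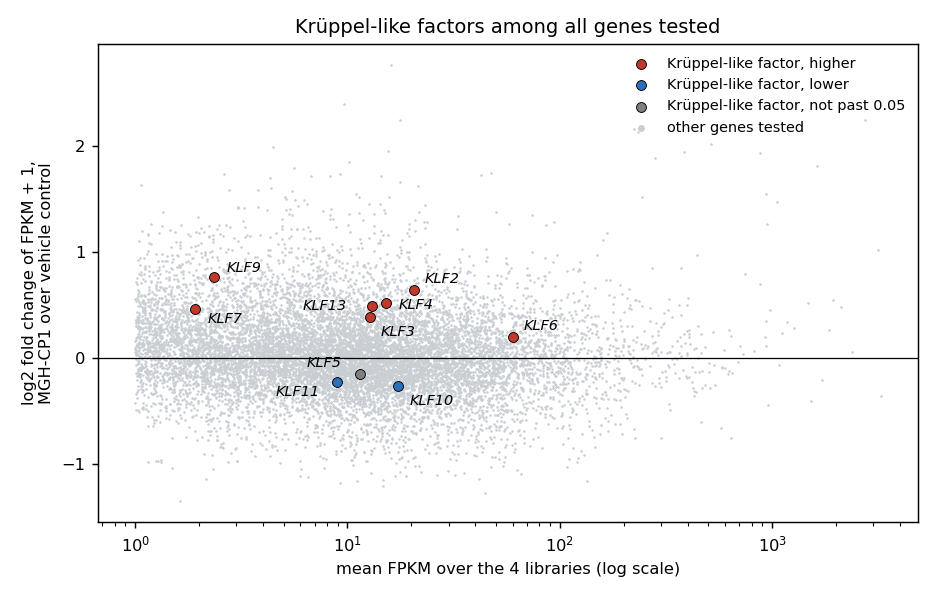
Log2 fold change of FPKM + 1, MGH-CP1 over vehicle control, against mean FPKM over the 4 libraries (log scale) for the 12080 genes tested, with the Krüppel-like factors in colour by their call. KLF9 and KLF2 lie at 0.76 and 0.64, inside the cloud of all genes.

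In size the changes stayed inside the range of the other genes. Larger rises than that of KLF2 were seen for 6.59% of the genes tested, than that of KLF4 for 9.98%, than that of KLF13 for 11.0% and than that of KLF6 for 29.96%. A lower log2 fold change than that of KLF10 was seen for 18.0% of the genes tested and than that of KLF11 for 22.3%. Summed over all 17 KLF genes of the table, FPKM came to 170.9 and 173.7 in the controls, and to 203.1 and 191.1 after MGH-CP1. KLF6 made up 32.5% of that sum in each vehicle control library and 32.5% and 32.8% after MGH-CP1. The share of KLF10 went from 11.2% and 10.9% to 7.74% and 8.17%, and that of KLF2 from 9.17% and 9.10% to 13.9% and 11.6%. KLF9 accounted for 0.855% and 0.875% of the sum in the controls and 1.57% and 1.71% after MGH-CP1.

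Of the other 7 KLF genes, KLF12 and KLF16 passed the filter on low values. KLF16, a further SIN3A-binding repressor, had 16.5 and 18.5 FPKM in the controls and 14.5 and 15.0 FPKM after MGH-CP1, and decreased by 0.23 on the log2 scale (standard error 0.07, limma adjusted p = 0.0253); without MGH-CP1 replicate 1 the limma adjusted p was 0.108, without MGH-CP1 replicate 2 it was 0.0537 and without vehicle control replicate 2 it was 0.144. KLF12, a CtBP-binding repressor like KLF3, had 3.40 and 3.32 FPKM in the controls and 2.97 and 2.79 FPKM after MGH-CP1, which did not pass the test (log2 fold change -0.17, 95% interval -0.38 to 0.04, limma adjusted p = 0.157). KLF15 had 0.962 and 1.10 FPKM in the controls and 0.604 and 0.729 FPKM after MGH-CP1, just under the filter on mean FPKM and so not tested. KLF17 had 0.491 to 0.540 FPKM over the 4 libraries, KLF8 0.114 to 0.228 and KLF14 0.0765 to 0.448, and KLF1, the erythroid factor, had 3 fragments in vehicle control replicate 1 and 0 in the other libraries.

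Of the 9 SP genes, which share the zinc fingers of the family, 6 were tested. SP2, SP3 and SP5 fell, by 0.32, 0.27 and 0.33 on the log2 scale, and SP6 rose by 0.35, with limma adjusted p-values from 0.00550 to 0.0320; these genes are named after their values were seen. The log2 fold changes of SP1 and SP4 were -0.12 and -0.21 and did not pass. Over the 8 tested KLF and SP relatives together, 1 was higher and 4 were lower, beside 27.1% and 23.8% of all genes tested. Their median log2 fold change was -0.22.

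**Figure D4:**
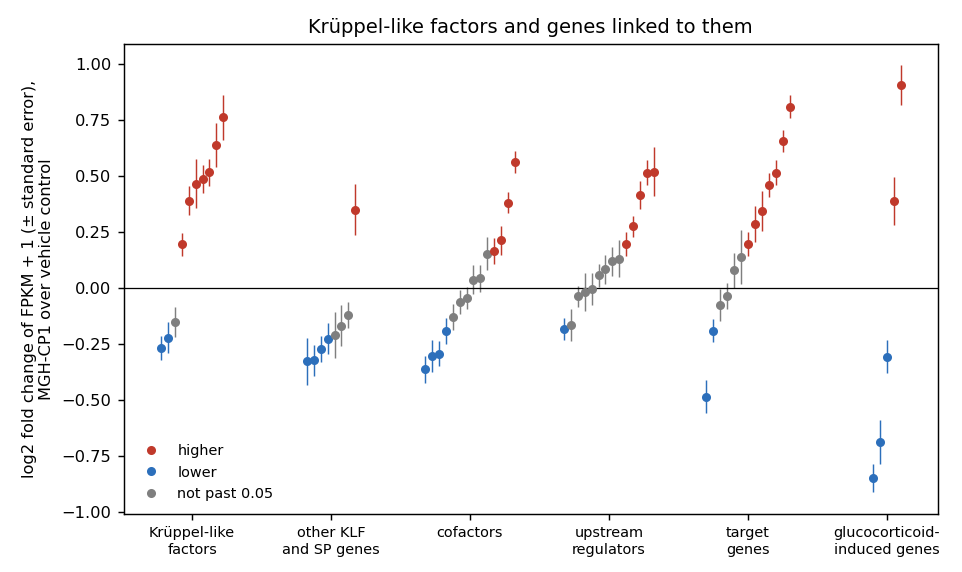
Log2 fold change of FPKM + 1 with its standard error for each tested gene of 6 lists: the Krüppel-like factors, the other KLF and SP genes, cofactors, upstream regulators, reported target genes and glucocorticoid-induced genes. Colours give the call. The cofactors hold 4 higher and 4 lower genes of 14, where 27.1% of all genes tested were higher and 23.8% lower.

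Among 14 cofactors of the family, all tested, 4 were higher, 4 were lower and 6 did not pass. In the same fit 27.1% of all genes tested were higher and 23.8% lower. SIN3B, a scaffold of histone deacetylase complexes, rose from 29.8 ± 0.526 to 44.5 ± 0.235 FPKM (SD, n = 2 each, log2 fold change 0.56, limma adjusted p = 8.67e-05). Its paralog SIN3A fell from 16.6 ± 0.614 to 13.3 ± 1.04 FPKM (log2 fold change -0.30, limma adjusted p = 0.00786). The deacetylases divided in the same manner, with HDAC1 higher by 0.38 and HDAC2 lower by 0.29 on the log2 scale. Also called were SAP18 and HDAC3, which were higher, and SAP30 and the acetyltransferase CREBBP, which were lower. SIN3B is named because it was called and changed by at least 0.5, and these other called cofactors are named after their values were seen. CTBP1 and CTBP2, the partners of KLF3, had log2 fold changes of -0.04 and -0.06, with 95% intervals from -0.16 to 0.07 and from -0.18 to 0.06.

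Of 14 upstream regulators, all tested, 5 were higher, 1 was lower and 8 did not pass. The shares over all genes tested were 27.1% higher and 23.8% lower. TGFBR1, the type I receptor of TGF-beta, rose from 29.3 ± 0.468 to 42.4 ± 1.92 FPKM (SD, n = 2 each, log2 fold change 0.52, limma adjusted p = 1.88e-04). MEF2C, of the MEF2 factors through which the kinase ERK5 induces KLF2 and KLF4, rose from 1.23 ± 0.00678 to 2.19 ± 0.0612 FPKM (log2 fold change 0.52, limma adjusted p = 0.00487). MEF2D, TGFBR2 and TGFB1 were higher by 0.42, 0.28 and 0.20 on the log2 scale, and NR3C1, the glucocorticoid receptor, was lower by 0.18. These are named after their values were seen, and TGFBR1 and MEF2C because they were called and changed by at least 0.5. MAPK7, which encodes ERK5, and its kinase MAP2K5 had log2 fold changes of 0.13 and -0.16 that did not pass. WWP1 and FBXW7, ubiquitin ligases that act on KLF5, had log2 fold changes of 0.08 and -0.02 that did not pass either.

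Of 18 genes reported as targets of these factors, 13 were tested, 7 of which were higher and 2 lower. The list holds both activated and repressed targets, so these counts do not show whether targets followed the factors. Over the cofactor, regulator and target lists together, 14 of 39 tested genes were higher and 7 were lower. Of all genes tested, 27.1% were higher and 23.8% lower. THBD, the thrombomodulin gene that KLF2 is known to activate in endothelium, rose from 20.4 ± 0.294 to 36.6 ± 0.668 FPKM (SD, n = 2 each, log2 fold change 0.81, limma adjusted p = 2.79e-05). LGALS3, known from mice as a gene that KLF3 represses, rose from 54.0 ± 1.54 to 85.7 ± 0.440 FPKM (log2 fold change 0.66, limma adjusted p = 4.01e-05). KLF3 was higher as well. TGFBR1, which is also in the list of regulators, was the third called gene that changed by at least 0.5. The cell cycle inhibitor CDKN1A was higher by 0.46, SMAD7, an inhibitor of TGF-beta signalling, by 0.34, PDGFA by 0.29 and TGFB1 by 0.20 on the log2 scale. PLAU and CCND1 were lower by 0.49 and 0.19. The genes from CDKN1A onwards are named after their values were seen. THBD, LGALS3 and TGFBR1 are named because they were called and changed by at least 0.5. The other tested targets, S1PR1, SMAD2, MAOA and PPARG, did not pass, with log2 fold changes of 0.14, -0.08, 0.08 and -0.04. NOS3, CCL5, ENG, FGFBP1 and KLF8 were under the filter on mean FPKM and were not tested. The median log2 fold change of the 13 tested genes was 0.20.

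Because KLF9 is a known target of the glucocorticoid receptor, 6 other glucocorticoid-induced genes were examined. TSC22D3 rose from 5.78 ± 0.462 to 11.7 ± 1.23 FPKM (SD, n = 2 each, log2 fold change 0.91, limma adjusted p = 1.37e-04), and PER1 was higher by 0.39 on the log2 scale. FKBP5 fell from 17.4 ± 0.256 to 9.22 ± 0.482 FPKM (log2 fold change -0.85, limma adjusted p = 4.75e-05), and SGK1 and DUSP1 were lower by 0.69 and 0.31. ZBTB16 had 0 fragments in every library. The glucocorticoid-induced genes are named after their values were seen. Of the 5 tested, 2 were higher and 3 lower, beside 27.1% and 23.8% of all genes tested. The part of the glucocorticoid receptor in the change of KLF9 was not tested.

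Over the 4 libraries, the genes with the pattern nearest to that of KLF9 by Euclidean distance on log2(FPKM + 1), centred on the vehicle control mean, were SLC25A37, EFCAB4A and DNAJB2, at distances of 0.0191, 0.0212 and 0.0293 with log2 fold changes of 0.75, 0.77 and 0.75. For KLF10 they were ALDH5A1, NDST1 and C3orf14, at distances of 0.0075, 0.0085 and 0.0125. A small distance requires a similar fold change, so the likeness in fold change is not a separate result.

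**Figure D5:**
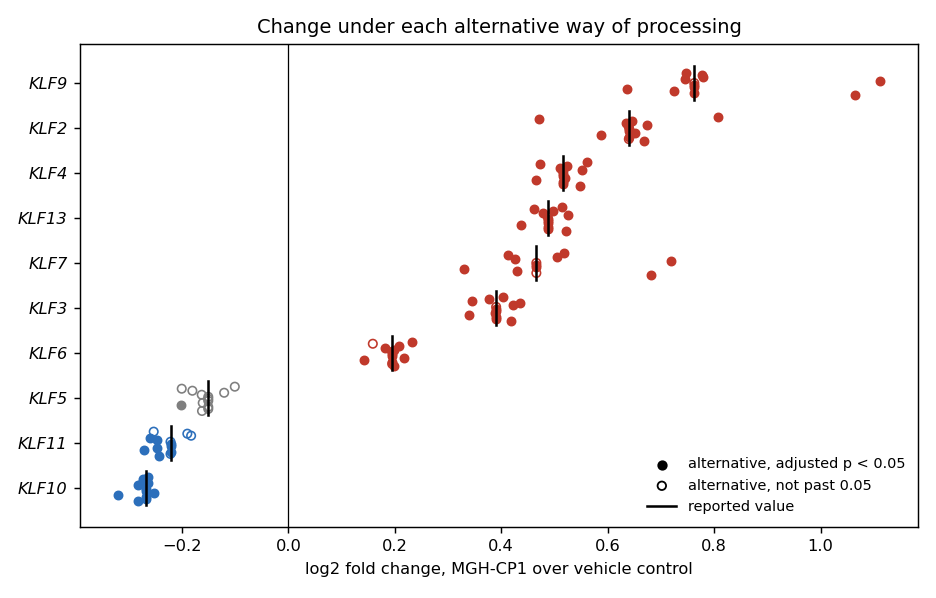
Log2 fold change of each Krüppel-like factor under the 13 alternative ways of processing (circles, filled where the adjusted p is under 0.05), with the reported value as a vertical line; KLF7 and KLF9 have 12 alternatives. Each factor stays on its side of 0 under each alternative. KLF9 ranges from 0.64 to 1.11, KLF7 from 0.33 to 0.72 and KLF2 from 0.47 to 0.81.

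The libraries held 25455533 and 25508824 fragments on genes in the controls and 17997221 and 17577930 after MGH-CP1, so the treated values rest on fewer fragments; the part of depth in the results was not tested beyond the scaling alternatives. Between 193 and 6713 fragments lay on each factor in a library. Markers of the line were abundant, VIM, CD44, CAV1 and AXL each having at least 149 FPKM in every library, and CAV1 and AXL were lower after MGH-CP1 by 0.49 and 0.76 on the log2 scale. Summed over these 4 markers, FPKM was 1144 and 1147 in the controls and 902 and 943 after MGH-CP1, and the part of this shift in the results on the factors was not tested. Among 5 luminal or epithelial markers, ESR1 and PGR had at most 0.0243 FPKM and CDH1 0.289 to 0.638 FPKM, whereas GATA3 had 4.17 to 5.65 FPKM and EPCAM 12.4 to 16.4 FPKM; neither of the latter passed the test. The leukocyte marker PTPRC had at most 0.0321 FPKM, and CD3E and the endothelial marker CDH5 were at 0 in every library. CTGF, CYR61 and ANKRD1, well-known targets of TEAD and YAP, fell by 0.66, 0.75 and 0.66 on the log2 scale.

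In the deposited coordinates, for which the submitters' notes name hg19, none of the factors overlaps another. KLF2 is at chromosome 19, 16435628 to 16438685 on the plus strand, KLF9 at chromosome 9, 72999503 to 73029540 on the minus strand, and KLF4 at chromosome 9, 110247133 to 110252763 on the minus strand. KLF6 is at chromosome 10, 3818188 to 3827473 on the minus strand, and KLF10 at chromosome 8, 103661007 to 103668130 on the minus strand. KLF11 is at chromosome 2, 10182976 to 10194963 on the plus strand, KLF7 at chromosome 2, 207938861 to 208031991 on the minus strand, and KLF3 at chromosome 4, 38665817 to 38702663 on the plus strand. KLF5 is at chromosome 13, 73629114 to 73651676, and KLF13 at chromosome 15, 31619058 to 31727868, both on the plus strand. KLF13 spans the pseudogene UBE2CP4, with 0 fragments in every library, and KLF7 spans the intronic transcript KLF7-IT1, with at most 1 fragment. The pseudogenes KLF3P1, KLF3P2, KLF7P1 and KLF8P1 held 1 fragment in all, in MGH-CP1 replicate 2, so fragments assigned to near-identical copies were few.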

How the data were processed

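Polyadenylated RNA of MDA-MB-231 cells, with or without MGH-CP1 for 24 h, was sequenced as paired-end reads. The submitters' processing notes name CASAVA 1.8, STAR and hg19, and the counting tool is not given in the sources used here. The deposited table gives the authors' FPKM of 48162 genes, scaled by the listed gene length and by the fragments on genes of the library. None of the 10 members had the same start and end in GENCODE release 29, which is on GRCh38. The columns named DMSO were taken as the vehicle control samples of the same number. FPKM times length was a whole multiple of a single step for 100% of values in each library (tolerance 0.01), which gave the fragment numbers.

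Genes averaging 1 FPKM or more were compared on log2(FPKM + 1) with limma 3.58.1 in R 4.3.3 (trend, two-sided, 5.97 prior degrees of freedom). Alternatives, a per-gene variance among them, are given in the closing section. The main fit, and none of the alternatives, was tried on simulated counts with the same spread setting for every gene, which real genes need not share. The members, lists and alternatives were chosen with earlier results of these data known. The members, the other tested KLF genes and, at most 5 a list, called relatives, cofactors, regulators and targets that changed by 0.5 or more on the log2 scale were named. Checks of the treatment and listed genes that overlap a member were also named, and the 3 genes nearest in pattern to the members with the largest rise and fall. Promoter sequences are from RefSeq (GRCh38.p14), searched on both strands, and no coordinate was converted between builds. PECAM1 was not analysed here.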

Additional observations from a re-analysis of the deposited data

How the results depend on the processing

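Over 13 alternatives, 128 values of the 10 factors kept their direction. Of these, 110 stayed on their side of the threshold, 17 lost the call and 1, KLF5 under median-ratio scaling, gained it. KLF7 and KLF9 were not tested at a mean FPKM of at least 5. Without the filter on low values, 4 factors were higher and 1 lower, 1844 of all genes were lower, 0 of the other KLF and SP genes were higher and 1 lower, and 9 of the cofactor, regulator and target genes were higher and 4 lower. With each gene's own variance in the limma model, 0 of the 10 factors, of the 8 relatives and of the 39 cofactor, regulator and target genes were called either way, while 8, 5 and 15 had an unadjusted p under 0.05 and limma voom on the recovered fragments called 9, 7 and 21. In that setting 9 of all genes were higher and 4 lower. With quantile normalization 0 of the relatives were higher, and SP6 also lost its call with any library left out. At a mean FPKM of at least 5 SP6, the 1 relative called higher in the main fit, was not tested. Leaving out each library, with the lone sample of a group assumed to vary like the other group, gave 6 to 7 factors higher and 1 to 2 lower, 2 to 4 relatives lower, and 10 to 13 cofactor, regulator and target genes higher and 3 to 6 lower, the 3 without MGH-CP1 replicate 1. The cause of these changes was not tested. Without the filter more genes were adjusted for, and the variance shared between genes differed as well. There the standard error was 0.127 for KLF2, against 0.0999 in the main fit, and 0.0312 for KLF10, against 0.0554. With the replicate number as a block (replicate block) 7 factors were higher and 2 lower, and of all genes 3466 were higher and 3052 lower; the deviations of same-numbered libraries had a correlation of 0.0777 across genes, and the samples share only a number. Scaling moved the median of all genes by at most 0.05 on the log2 scale. Single factors moved further, as quantile normalization lowered KLF9 from 0.76 to 0.64 and KLF7 from 0.47 to 0.33. KLF9 moved up to 1.11 with limma voom on the recovered fragments and to 1.06 with a pseudocount of 0.1. Counting error limits KLF9 and KLF7 most, with 193 and 293 fragments in their lowest libraries.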
